A study of Mus musculus with 6 samples.

Results

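The miRNAs miR-23a, miR-23b, miR-24, miR-27a and miR-27b (mmu-miR-23a, mmu-miR-23b, mmu-miR-24, mmu-miR-27a and mmu-miR-27b on the cards) come from a pair of small gene clusters that are known for their roles in blood vessel growth. They were selected by their exact names, without passenger strands, from a table of quantitative real-time PCR (qRT-PCR) arrays, and the rule found 5 of the 596 mouse miRNA assays. Total RNA came from whole aortas of female Apoe-/- mice that were 6-8 weeks old at the start of a high-fat diet (HFD) with 21% crude fat and 0.15% cholesterol, given for 12 weeks. In the 3 EC-Dicerflox mice (VE-Cadherin-CreERT2Dicer1flox/flox/Apoe-/-), tamoxifen (2 mg per 20 g of body weight on 5 days) switches on a Cre recombinase under the endothelial VE-cadherin promoter, which removes a floxed part of Dicer1. The 3 EC-DicerWT littermates (VE-Cadherin-CreERT2Dicer1WT/WT/Apoe-/-) carried the same Cre transgene and received the same tamoxifen and diet, and both groups lack Apoe. The promoter directs the deletion to endothelial cells, and Dicer in the other cells of the wall was not measured here. Whole aortas also hold miRNA from those cells, which can mask a loss in endothelial cells. Fewer endothelial cells and less miRNA per endothelial cell cannot be told apart in whole aortas. Dicer1 mRNA is not measured by the cards, so the labels could not be checked on the targeted gene in these data. By qRT-PCR the study reports less Dicer mRNA in EC-Dicerflox aortas and in endothelial cells isolated from them, and no effect in myeloid cells.

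Dicer cuts the hairpin precursor of a miRNA into a short duplex, and 1 strand of it, the mature miRNA, then guides Argonaute to target mRNAs that match its seed, the bases from position 2 to position 8. Hairpins of a cluster lie on 1 primary transcript, although their mature products can differ in processing and in turnover. The miR-23 and miR-27 families are enriched in endothelium and promote sprouting by repressing the angiogenesis inhibitors Sprouty2 and Sema6A. MiR-24 acts on endothelial survival and vascularity through Gata2 and Pak4. MiR-27 also limits adipogenesis by repressing Pparg. The comparison asks whether these miRNAs differ in the atherosclerotic aorta when endothelial cells lose Dicer.

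The hairpins of miR-23a, miR-27a and miR-24-2 span 404 bp of chromosome 8 (chr8:84208518-84208921, plus strand), and those of miR-23b, miR-27b and miR-24-1 span 792 bp of chromosome 13 (chr13:63300484-63301275, plus strand; RefSeq, GRCm38.p6). The assay names give no arm, and names without an asterisk were taken, by the usual naming of these miRNAs, as the arm at the 3′ end of each hairpin. These mature sequences are shown because 2 of the families share part of their seed, with the seed in capitals.
miR-23a-3p: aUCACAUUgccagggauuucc
miR-27a-3p: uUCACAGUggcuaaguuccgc
miR-27b-3p: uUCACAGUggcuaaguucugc
miR-24-3p: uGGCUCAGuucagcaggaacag
MiR-27a-3p and miR-27b-3p, both 21 bases long, are identical at 20 positions and differ by C19U, counted from the 5′ end with the base of miR-27a first. They have the same seed, which the table of 1679 mature mouse miRNAs lists for these 2 only. The seed of miR-23a-3p differs from it by U7G, with the base of miR-23a first, whereas the seed of miR-24-3p differs from both at all 7 bases. MiR-23b-3p belongs to the same seed family as miR-23a-3p.

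MiR-24-3p is written identically in both clusters, and the following hairpins, the substrates of Dicer, are shown with the mature miR-24-3p in capitals.
Mir24-2 (chr8:84208815-84208921): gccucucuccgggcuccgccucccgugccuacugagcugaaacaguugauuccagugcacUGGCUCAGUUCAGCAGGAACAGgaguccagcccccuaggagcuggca
Mir24-1 (chr13:63301208-63301275): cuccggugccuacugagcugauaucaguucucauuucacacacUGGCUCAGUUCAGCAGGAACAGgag
The miR-24 assay therefore reads the sum of both clusters. Only miR-23a, miR-27a, miR-23b and miR-27b can be assigned to 1 cluster, and a single base separates the 2 miR-27 assays. No mature sequence of miR-23b was available here, so that the 2 miR-23 assays could not be compared in this way.

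All 5 miRNAs were detected in all 6 aortas, with raw cycle thresholds (Ct) between 15.30 and 21.19. The Ct is the PCR cycle at which the signal crosses a set level, and a higher Ct means less RNA. MiR-24 had the lowest Ct of the 5, with 15.39, 15.67 and 15.65 in EC-Dicerflox and 15.30, 15.44 and 15.54 in EC-DicerWT aortas. By mean Ct it ranked 4 among the 394 miRNA assays detected in every sample, near the smooth muscle miR-145 (14.7) and miR-143 (16.2) and ahead of the endothelial miR-126-3p (17.5). MiR-27b followed, with a Ct of 19.39, 19.73 and 19.73 in EC-Dicerflox and 18.97, 19.00 and 19.88 in EC-DicerWT aortas. The Ct of miR-27a was 20.07, 20.55 and 20.34 in EC-Dicerflox and 20.00, 19.94 and 20.38 in EC-DicerWT aortas. In both miR-27 miRNAs, EC-DicerWT replicate 3 was higher in Ct than the other 2 EC-DicerWT aortas. MiR-23b, with the highest mean Ct, had 20.46, 20.96 and 20.95 in EC-Dicerflox and 20.17, 20.34 and 20.76 in EC-DicerWT aortas. MiR-23a had 19.53, 20.64 and 21.19 in EC-Dicerflox and 19.73, 19.61 and 20.73 in EC-DicerWT aortas. The values of the groups overlapped for each of the 5 miRNAs.

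The order miR-24, miR-27b, miR-27a and miR-23b was the same in all 6 aortas. MiR-27b exceeded miR-27a by 0.51 to 1.03 cycles, and miR-27a exceeded miR-23b by 0.17 to 0.61 cycles. MiR-23a was below miR-24 and miR-27b in all 6 aortas, but had no fixed place relative to miR-27a and miR-23b. It exceeded miR-27a in 3 aortas and was below it in the others, and its mean Ct (20.24) and that of miR-27a (20.21) did not differ beyond the spread between mice. These differences are between assays whose efficiency was not measured here, so that they describe the order of detection and not molecule numbers.

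**Figure D1:**
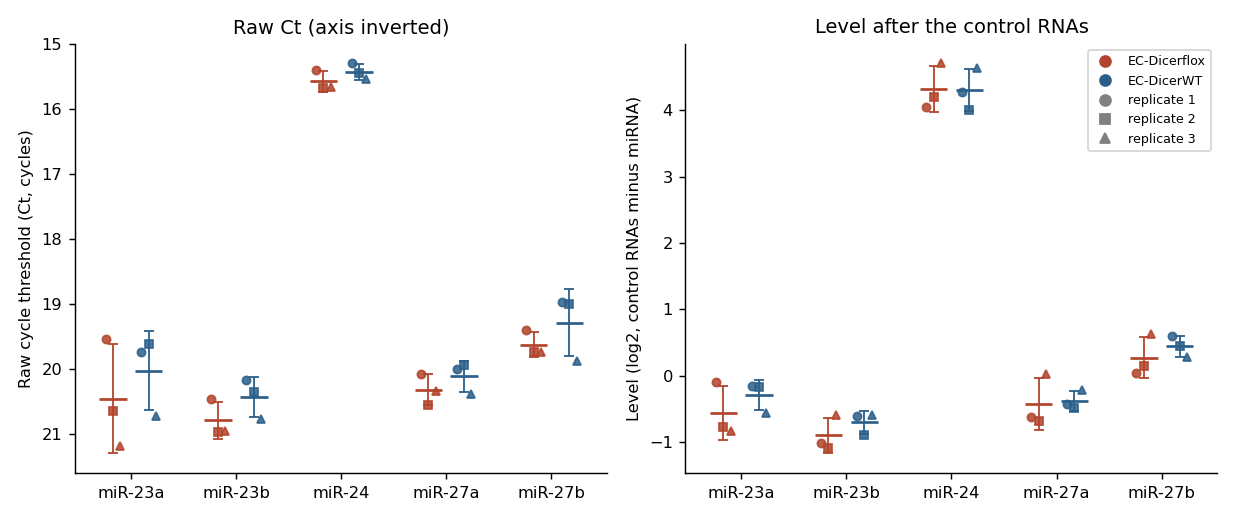
Raw Ct in cycles (left, axis inverted so that more RNA is higher) and level on the log2 scale (right, mean Ct of 5 control RNAs minus the Ct of the miRNA) of the 5 miRNAs in each aorta, with colours for the groups and symbols for the replicate numbers. Horizontal lines are means and bars are SD (n = 3). MiR-24 stands apart from the other miRNAs in every aorta, and the groups overlap for all of them.

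Endothelial loss of Dicer was not accompanied by a resolved difference in any of the 5 miRNAs. Levels were computed as the mean Ct of 5 control small RNAs (snoRNA135, snoRNA202, U6, U87 and Y1) minus the Ct of the miRNA, and 439 assays detected in at least 3 aortas were compared with limma. None of the 5 had an unadjusted P under 0.05, which held for 21 of the 439 tested assays (4.78%; 3.87% on the lower and 0.911% on the higher side), and 0 assays had an adjusted P under 0.05. Nor did the groups separate without overlap for any of them, as they did for 43 of the tested assays (9.79%; 7.06% on the lower and 2.73% on the higher side). The median difference of the 5 miRNAs was -0.18 on the log2 scale, beside -0.10 for all tested assays. In this text a difference is EC-Dicerflox minus EC-DicerWT unless another is named.

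MiR-23a had the largest difference of the 5, with a level of -0.56 ± 0.41 in EC-Dicerflox and -0.29 ± 0.23 in EC-DicerWT mice (SD, n = 3 each). The difference was -0.27 ± 0.30 (SE), which is 82.9% of that in EC-DicerWT mice, with a 95% confidence interval from 49.2% to 140% (unadjusted limma P of 0.40, adjusted P of 0.99). In its paralog miR-23b the level was -0.90 ± 0.27 in EC-Dicerflox and -0.70 ± 0.17 in EC-DicerWT mice (SD, n = 3 each). This difference was -0.20 ± 0.24 (SE), which is 87.0% of that in EC-DicerWT mice, with an interval from 56.9% to 133% (unadjusted limma P of 0.44, adjusted P of 0.99). Both intervals include no difference, a marked reduction and also an increase.

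MiR-27b had a level of 0.27 ± 0.31 in EC-Dicerflox and 0.45 ± 0.16 in EC-DicerWT mice (SD, n = 3 each). The difference of -0.18 ± 0.25 (SE) corresponds to 88.5% of the EC-DicerWT level, with an interval from 57.0% to 138% (unadjusted limma P of 0.51, adjusted P of 0.99). MiR-27a, with the same seed, had -0.43 ± 0.39 in EC-Dicerflox and -0.38 ± 0.15 in EC-DicerWT mice (SD, n = 3 each). Its difference was -0.05 ± 0.28 (SE), which is 96.7% of that in EC-DicerWT mice, with an interval from 59.6% to 157% (unadjusted limma P of 0.87, adjusted P of 0.99). In replicates 1 and 2 alone, without the third mouse of each group, the difference was -0.43 for miR-27b and -0.19 for miR-27a (unadjusted limma P of 0.18 and 0.50). MiR-24, which both clusters produce, was 4.32 ± 0.34 in EC-Dicerflox and 4.30 ± 0.32 in EC-DicerWT mice (SD, n = 3 each). The difference of 0.01 ± 0.30 (SE), which is 101% of that in EC-DicerWT mice, had an interval from 60.1% to 170% (unadjusted limma P of 0.96, adjusted P of 0.99). The estimates of miR-24 and miR-27a were within a few percent of the EC-DicerWT level, although their intervals were as wide as those of the others.

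The mean of the control RNAs varied between mice by more than the raw Ct of miR-24, miR-27a and miR-23b. It varied by about as much as the raw Ct of miR-27b (ranges of 0.92 and 0.91 cycles). Before any reference was subtracted, the Ct of all 5 miRNAs was on average higher in EC-Dicerflox aortas, by 0.15 cycles for miR-24, 0.21 for miR-27a, 0.34 for miR-27b, 0.36 for miR-23b and 0.43 for miR-23a. The mean of the control RNAs was itself higher by 0.16 cycles in EC-Dicerflox aortas. Over the 6 aortas this mean ranged over 0.92 cycles, from 19.44 to 20.36, whereas the raw Ct of miR-24 ranged over 0.38 cycles. As means of both cards, U87 ranged over 1.96 cycles and Y1 over 1.54. For snoRNA202, U6 and snoRNA135 the ranges were 0.765, 0.805 and 0.842 cycles. Only 3 of the 394 assays detected in every sample had a smaller range than miR-24. After subtraction miR-24 was highest in the third replicates of both groups (4.70 in EC-Dicerflox and 4.63 in EC-DicerWT aortas), which had the highest control Ct.

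The direction of miR-24 and miR-27a depended on the reference, and that of miR-23a, miR-23b and miR-27b did not. With U6 alone all 5 differences were negative, from -0.65 for miR-23a to -0.36 for miR-24, but the median of all tested assays was then -0.48. Of the 10 control assays, U6 on card B had a Ct of 16.62 in EC-DicerWT replicate 1 and between 15.08 and 15.39 in the other aortas. U6 on card A, which holds the 5 miRNA assays, ranged over only 0.25 cycles. This assay alone was used as reference in a setting that was added with the data known, and the median of all tested assays was then -0.24. The differences were -0.41 for miR-23a, -0.34 for miR-23b, -0.32 for miR-27b, -0.19 for miR-27a and -0.13 for miR-24, with unadjusted limma P values from 0.37 to 0.68. Relative to the global mean they ranged from -0.22 for miR-23a to 0.07 for miR-24. MiR-23a, miR-23b and miR-27b were on the lower side in all 21 alternative fits, and none of the 5 miRNAs had an unadjusted limma P under 0.05 in any of them. Detection filters, the Ct limit of 35, variance models, the replicate block and the batch term leave the estimates of these miRNAs unchanged. Their sign could turn only with other references or with replicates left out.

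**Figure D2:**
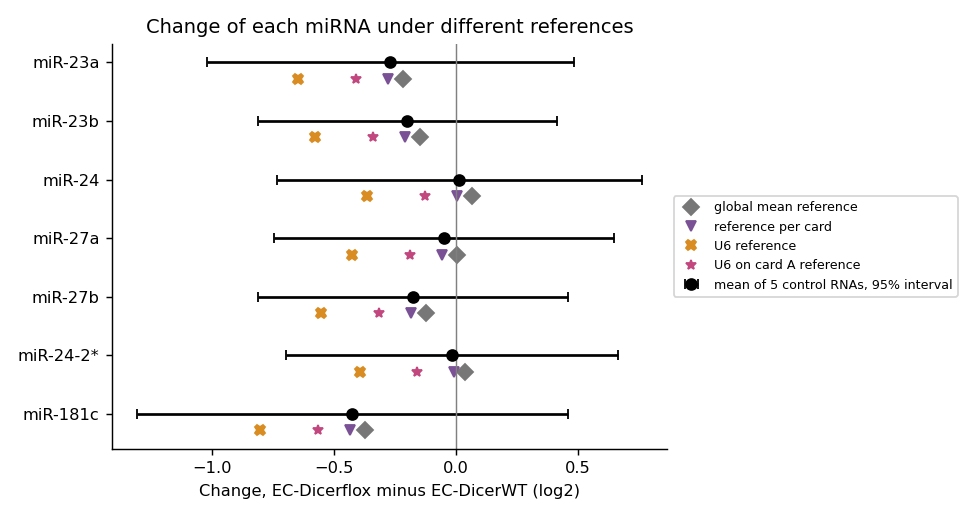
Difference in level (EC-Dicerflox minus EC-DicerWT, log2 scale) of the 5 miRNAs, of the passenger strand miR-24-2* and of miR-181c, encoded close to the cluster on chromosome 8. Black points and bars are limma estimates with 95% confidence intervals (n = 3 per group) and coloured symbols are estimates with other references. All intervals include 0, and the estimates with U6 lie farthest to the left.

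MiR-23a stood apart from the other 4 in its spread among mice. Its raw Ct ranged over 1.66 cycles, which was more than in 122 of the 143 assays with a mean Ct under 25 that were detected in every sample, for which the median range was 0.98. The range was 0.91 cycles for miR-27b, 0.79 for miR-23b and 0.61 for miR-27a. The Ct of miR-23a was lowest in EC-Dicerflox replicate 1, EC-DicerWT replicate 2 and EC-DicerWT replicate 1, and highest in the third replicates and EC-Dicerflox replicate 2. Without EC-Dicerflox replicate 1 its difference was -0.51 (unadjusted limma P of 0.12), and without EC-Dicerflox replicate 3 it was -0.14. A control small RNA varied in the same way, since U87 on card A had a Ct of 21.08, 22.49 and 22.82 in EC-Dicerflox and 21.61, 21.51 and 22.49 in EC-DicerWT aortas. The part of RNA quality or PCR in the spread of miR-23a was not tested.

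**Figure D3:**
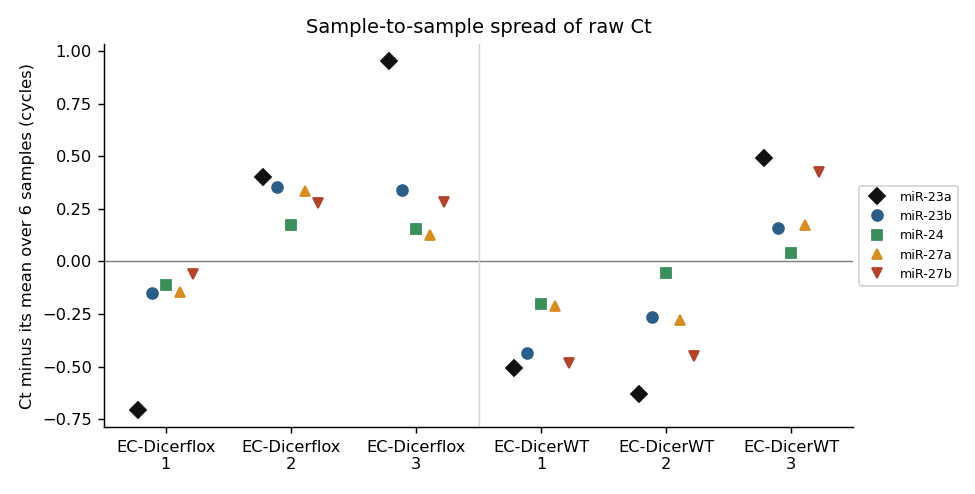
Raw Ct of each miRNA minus its own mean over the 6 aortas, in cycles, with 1 symbol per miRNA and aorta. MiR-23a spans 1.66 cycles and miR-24 spans 0.38 cycles, with the other 3 in between.

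Differences between the miRNAs within an aorta need no reference RNA, and all 10 pairs were compared between the groups by exact two-sided permutation tests, for which the smallest P with 3 against 3 mice is 0.1. With the comparisons to slow-turnover miRNAs described below, 15 such tests were made, and none had an adjusted P below 0.92 (Benjamini-Hochberg). The paralogs on different chromosomes were examined first. MiR-27b minus miR-27a was 0.67, 0.81 and 0.60 in EC-Dicerflox and 1.03, 0.93 and 0.51 in EC-DicerWT aortas (log2). It averaged 0.70 ± 0.11 in EC-Dicerflox and 0.82 ± 0.28 in EC-DicerWT mice (SD, n = 3 each), a difference of -0.13 (exact permutation P of 0.5). EC-DicerWT replicate 3 had the lowest ratio of all 6 aortas, and the other 2 EC-DicerWT aortas had the highest. MiR-23b minus miR-23a ranged from -0.93 to 0.24 in EC-Dicerflox and from -0.74 to -0.04 in EC-DicerWT aortas, a difference of 0.07 (P = 0.9, exact permutation test).

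Within the cluster on chromosome 13, miR-27b minus miR-23b was 1.17 ± 0.09 in EC-Dicerflox and 1.14 ± 0.23 in EC-DicerWT mice (SD, n = 3 each), a difference of 0.03 (P = 0.8, exact permutation test). MiR-24 minus miR-23b was 5.07, 5.29 and 5.29 in EC-Dicerflox and 4.88, 4.90 and 5.23 in EC-DicerWT aortas. With a difference of 0.22 the exact permutation P was 0.2 (adjusted 0.92), and 2 of the 3 EC-DicerWT aortas lay below all EC-Dicerflox aortas. For miR-27a minus miR-23b the difference was 0.15 (exact permutation P of 0.2). Both differences kept their sign when any 1 mouse was left out, from 0.15 to 0.33 for miR-24 and from 0.08 to 0.20 for miR-27a. MiR-27b minus miR-24 was nearly constant among EC-Dicerflox aortas, at -4.00, -4.06 and -4.08, and was -3.67, -3.56 and -4.34 in EC-DicerWT aortas. Replicates 1 and 2 of EC-DicerWT lay above all EC-Dicerflox aortas and replicate 3 lay below them, so that the difference of -0.19 had an exact permutation P of 0.4.

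**Figure D4:**
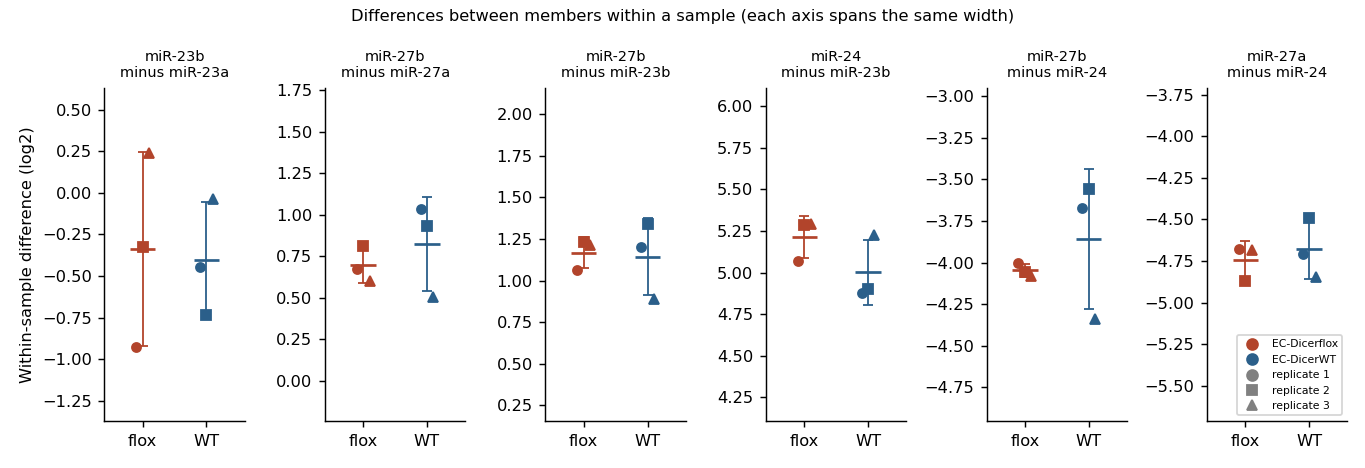
Differences between miRNAs within an aorta on the log2 scale for 6 of the 10 pairs, by group (flox, EC-Dicerflox; WT, EC-DicerWT), with means and SD (n = 3). Each axis spans the same number of log2 units around the mean of its pair. The spread is widest for miR-23b minus miR-23a, and in miR-27b minus miR-24 replicate 3 of EC-DicerWT lies on the other side of the EC-Dicerflox aortas from replicates 1 and 2.

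The study relates loss of Dicer to the turnover of single miRNAs. For this it cites an earlier report on silencing of Dicer in endothelial cells. That report places miR-27b in a class of fast turnover and miR-23a in a class of slow turnover. Here, by contrast, whole aortas were measured after 12 weeks of diet. MiR-27b was therefore set against the mean of the slow-turnover miR-126-3p, miR-21 and miR-26a in the same aorta. It was -1.59 ± 0.13 in EC-Dicerflox and -1.47 ± 0.27 in EC-DicerWT mice (SD, n = 3 each). The difference was -0.12 (exact permutation P of 0.6). For miR-23a the same difference was -0.21 (P = 0.8, exact permutation test), and without EC-Dicerflox replicate 3 it was 0.10. For miR-27b minus miR-23a the difference was 0.09 (exact permutation P of 0.8). MiR-23b, miR-24 and miR-27a had differences of -0.15, 0.07 and 0.01 relative to the slow-turnover miRNAs, with exact permutation P values from 0.4 to 1.0. For the fast class the study also names the let-7 family, miR-103 and miR-221. Here 11 assays were taken for these: let-7a to let-7g, let-7i, miR-98 (counted here in the let-7 family), miR-103 and miR-221. All 11 were on the lower side, with values from -2.67 (miR-98) to -0.12. Their median was -0.33 (-0.27 with the global mean and -0.70 with U6 as reference). The medians of all tested assays under the same references were -0.10, -0.05 and -0.48. Of all 439 tested assays, 271 were on the lower side. Of the 11, 2 (miR-98 and miR-103) had an unadjusted limma P under 0.05 (4.78% of all tested assays, 3.87% on the lower side). In 5 (let-7b, let-7d, let-7i, miR-98 and miR-103) the groups did not overlap (9.79% of all tested assays, 7.06% on the lower side). Leaving out EC-DicerWT replicate 3 gave miR-98 a difference of -1.72 (unadjusted limma P of 0.0074, adjusted P of 0.99). MiR-98 did not pass when EC-Dicerflox replicate 1 (unadjusted limma P of 0.075) or 3 (0.072) was left out. MiR-103 passed only when EC-Dicerflox replicate 3 (unadjusted limma P of 0.025) or replicate 2 of EC-DicerWT (0.047) was left out. With any other mouse left out, its unadjusted limma P was from 0.078 to 0.106. MiR-27b, at -0.18, lay toward the upper end of the range of the 11 assays.

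Of the passenger strands of the 6 hairpins, only miR-24-2* had an assay, on card B. It is the 5′ arm of the chromosome 8 hairpin of miR-24, and the passenger strand is normally degraded after Dicer has cut.
miR-24-2-5p: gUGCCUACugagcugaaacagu
Its Ct was 20.65, 21.49 and 21.35 in EC-Dicerflox and 20.61, 20.96 and 21.38 in EC-DicerWT aortas. Its level had a difference of -0.02 ± 0.27 (SE; unadjusted limma P of 0.95, adjusted 0.99), which places it beside miR-24 and miR-27a. Within 50 kb of the clusters the annotation lists Mir181c, Mir181d, Mir3074-1 and Mir3074-2, and of these miR-181c had an assay.
miR-181c-5p: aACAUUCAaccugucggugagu
Its gene lies 29557 bp from the chromosome 8 cluster on the minus strand (mature sequence at chr8:84178924-84178945), and the miR-181 family is known in blood cell and vascular inflammation. MiR-181c had a Ct of 25.48, 25.78 and 26.09 in EC-Dicerflox and 25.70, 24.61 and 25.28 in EC-DicerWT aortas. Thus miR-181c had a difference of -0.42 ± 0.35 (SE) and overlapping groups (unadjusted limma P of 0.27, adjusted P of 0.99). Without EC-DicerWT replicate 1 it was -0.75 (unadjusted limma P of 0.033, adjusted P of 0.97).

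The likeness of patterns over the 6 aortas was measured as the root mean square difference of Ct values, each taken relative to its own mean, over the assays detected in every sample. This measure needs no reference RNA and favours assays with little spread. MiR-27a, from chromosome 8, was about as near to miR-23b from chromosome 13 (0.13 cycles, rank 12 of 393 assays) as to miR-24, which both clusters encode (0.13 cycles, rank 11). MiR-27b was near miR-23b from its own cluster (0.15 cycles, rank 16) and farther from miR-24 (0.26 cycles, rank 86). MiR-23a was at 0.47 cycles from miR-27a of its own cluster (rank 146) and at 0.53 cycles from miR-24 (rank 185).

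No member was the nearest assay of another. The nearest to miR-23b were miR-152 (0.03 cycles), the smooth muscle miR-143 (0.07) and miR-676* (0.08). The nearest to miR-24 were miR-30a (0.07), miR-140 (0.09) and miR-671-3p (0.10), and to miR-27a they were miR-30a (0.08), miR-125b-5p (0.09) and miR-30c (0.09). The nearest to miR-27b were miR-148a (0.07), miR-361 (0.09) and miR-21 (0.10). For miR-23a the nearest were miR-345 (0.16), miR-1943 (0.19) and miR-18a* (0.20), which are all on card B although miR-23a is on card A. The control RNAs Y1 (0.22) and U87 (0.23), as the mean of both cards, were about as near to miR-23a, whereas U87 was 0.53 to 0.70 cycles from the other 4 miRNAs. For Y1 the spread came from card B, where its Ct ranged over 2.98 cycles. On card A, which holds miR-23a, Y1 ranged over only 0.52 cycles and U87 over 1.73 cycles.

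Other miRNAs with known roles in angiogenesis also showed no resolved difference. Of 23 such names, 22 had an assay, and 24 assays were tested, 18 on the lower side and 6 on the higher side in EC-Dicerflox aortas. None had an unadjusted limma P under 0.05, and the median of -0.10 equalled that of all tested assays. In 2 of the 24, miR-10a (1.19 ± 0.81, SE) and the miR-322 assay on card B (0.75 ± 0.33, SE), the groups did not overlap, beside 9.79% of all tested assays. MiR-10a had a level of 0.51, -2.15 and -2.11 in EC-Dicerflox and -2.33, -2.19 and -2.81 in EC-DicerWT aortas, and without EC-Dicerflox replicate 1, which stood far above all others, its difference was 0.31. For miR-322 the assay on card A gave -0.01 ± 0.42 (SE), and the one on card B gave 0.44 without EC-DicerWT replicate 1. Examples are miR-17 (-0.43 ± 0.25, SE) and the hypoxia-induced miR-210 (-0.07 ± 0.30, SE).

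The markers of the aortic wall were present in all aortas. The endothelial miR-126-3p differed by -0.13 ± 0.32 (SE) and miR-126-5p by 0.25 ± 0.35 (SE). The smooth muscle miR-143 differed by -0.10 ± 0.23 (SE) and miR-145 by 0.21 ± 0.31 (SE). The myeloid miR-223 differed by -0.21 ± 0.21 (SE) and miR-451, a marker of erythrocytes, by 0.05 ± 0.32 (SE). Each had an adjusted limma P of 0.99. Of the 5 leukocyte assays, 4 were on the lower side and 1 (miR-150, 0.07 ± 0.39, SE) was on the higher side. Over whole marker lists, 0 of 2 endothelial, 0 of 2 smooth muscle, 0 of 5 leukocyte and 0 of 2 erythrocyte assays had an unadjusted P under 0.05, beside 4.78% of all tested assays. Of 4 striated muscle assays tested, miR-208 did (-1.65 ± 0.53, SE), at a low mean level of -12.62 in EC-Dicerflox and -10.97 in EC-DicerWT mice. It did not without EC-Dicerflox replicate 2, EC-Dicerflox replicate 3 or EC-DicerWT replicate 1 (unadjusted limma P of 0.063, 0.069 and 0.055). The part of cell composition in the values of the 5 miRNAs was not tested.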

How the data were processed

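Aortic miRNAs of 3 mice per genotype were measured. Per the study's methods, reverse-transcribed RNA was preamplified before PCR on a pair of TaqMan cards. The authors deposited raw Ct values without a reference, with 40 for undetected assays. Baseline and threshold settings are not given in the sources used here. PCR efficiency was assumed to double the product per cycle. Read depth does not apply, and precision is limited by how many mice there were. The form of an assay's number gave its card. The reference was the mean Ct of 5 control RNAs after averaging cards. The 439 assays with a Ct under 40 in at least 3 samples were fitted with limma 3.58.1 in R 4.3.3 (lmFit and eBayes, two-sided, Benjamini-Hochberg over all tested assays), after a check of the test on simulated data. Exact permutation tests used SciPy 1.17.1. Named were the 5 miRNAs, their passenger strands and neighbours within 50 kb, slow-turnover and marker miRNAs, and the 3 nearest assays of each. MiR-10a, miR-17, miR-98, miR-103, miR-208, miR-210 and miR-322 were chosen after their values were seen. The members, lists, tests and alternatives were chosen with earlier results of these data known. Alternatives were other references, detection filters, a Ct limit of 35, variance models, a replicate block, the third replicates as a batch, their exclusion, and leaving out each replicate. Sequences and coordinates are from RefSeq (GRCm38.p6). Mice with the same number were not treated as pairs in the main fit, since the labels name no pairs. Deviations of samples with the same number correlated across 394 assays with 0.24, 0.03 and 0.39. Those of samples with different numbers correlated with values from -0.40 to 0.32. The third replicates had the highest correlation, and a shared run was not tested.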

Additional observations from a re-analysis of the deposited data

Results flagged for a closer look

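The assay of a miRNA from plants gave a Ct of 39.776 on card A in EC-Dicerflox replicate 1 and was undetected in the other samples. It is a signal in an assay that no comparison uses, and all Ct values of the 5 miRNAs were at or below 21.19.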

How the results depend on the processing

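The sign of miR-24 was negative with U6 (-0.36), U6 and snoRNA135 (-0.15), U6 on card A (-0.13) and in replicates 1 and 2 alone (-0.0144). The sign of miR-27a was positive with the global mean (0.0048) and snoRNA135 (0.0003), as was that of miR-24-2* (0.0355 and 0.0310). In replicates 1 and 2 alone, signs also turned for miR-23b minus miR-23a (-0.0355), miR-27b minus miR-23a (-0.1605), miR-27b minus miR-23b (-0.1250) and miR-27a minus the slow-turnover miRNAs (-0.0292), while miR-27b was -0.43, miR-27a -0.19 and miR-23b -0.30 without the third replicates. With U6 the median of the 5 miRNAs was -0.5533. Assays with an unadjusted P under 0.05 numbered 11 with U6 and 12 with U6 on card A, beside 21. The cause was not tested.

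When each replicate was left out, miR-23a ranged from -0.5055 to -0.1362, miR-23b from -0.3552 to -0.1057, miR-24 from -0.1786 to 0.1785, miR-27a from -0.2719 to 0.0751, miR-27b from -0.3521 to -0.0639, miR-24-2* from -0.1557 to 0.1538 and miR-181c from -0.7543 to -0.2460. The count ranged from 8 (without EC-Dicerflox replicate 2) to 22, with 13 without EC-DicerWT replicate 1 and 11 without EC-DicerWT replicate 3. MiR-23b minus miR-23a ranged from -0.2190 to 0.3645, miR-24 minus miR-23a from -0.0423 to 0.6532, miR-27a minus miR-23a from -0.1357 to 0.5573, miR-27b minus miR-23a from -0.2158 to 0.4417, miR-27b minus miR-23b from -0.1032 to 0.1238, miR-27a minus miR-24 from -0.1448 to 0.0322, miR-27b minus miR-24 from -0.4315 to -0.0405 and miR-27b minus miR-27a from -0.2867 to -0.0227. Relative to the slow-turnover miRNAs, miR-23a ranged from -0.6304 to 0.1039, miR-23b from -0.2659 to -0.0529, miR-24 from -0.0006 to 0.1551, miR-27a from -0.0731 to 0.1279 and miR-27b from -0.2764 to -0.0411.

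With a replicate block, which leaves the estimates as they are, the adjusted limma P was 0.88 for miR-23a, 0.89 for miR-23b, 0.99 for miR-24, 0.99 for miR-27a and 0.96 for miR-27b, 17 assays had an unadjusted P under 0.05, and no call on the 5 miRNAs differed.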
